A study of Homo sapiens with 12 samples.

Results

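Knockdown of MYOF and treatment with WJ460 were compared gene by gene in PANC-1 cells, a human pancreatic ductal adenocarcinoma line. The measurement was the difference between the 2 effects, siMYOF minus siGL3 and WJ460 minus DMSO, taken over all 12 RNA-seq libraries. Of 60617 genes in the table, the 14720 whose normalised count averaged 5 or more were included. The 4 groups had 3 libraries each. The first was transfected with siGL3, a control siRNA against firefly luciferase, and the second with siMYOF, an siRNA against MYOF. The third was given the solvent DMSO, and the fourth WJ460 at 50 nM, a compound meant to inhibit myoferlin. The genotype label is wild type in all groups but siMYOF, which is labelled as a knockdown. All libraries are labelled 48 h, which for the siRNA was counted from a wash after transfection. The comparison rests on 1 cell line and, going by the methods, on 1 siRNA against MYOF.

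MYOF encodes myoferlin, a large membrane-anchored protein of the ferlin family, whose C2 domains bind phospholipids. Ferlins act in membrane fusion, repair and vesicle trafficking, and myoferlin is abundant in many carcinomas, including those of the pancreas. An siRNA lowers the message and with it the protein over days, whereas a small molecule acts on proteins and leaves the message to respond secondarily. Comparing both treatments asks which transcripts answer to each, and which to only 1 of them.

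Depth ranged from 12335147 to 19847210 reads per library. The labels give 2 batches, an early one with replicate 1 of each siRNA group and a late one with the remaining 10, and 6628 of 14720 genes differed between early and late siRNA libraries, so batch was a term of the fit. The controls differed from each other as well, in 4720 genes (32.1%), so each effect was measured from its own starting level. WJ460 replicate 1 stood apart from replicates 2 and 3 (chi-square per degree of freedom 11.95 and 11.55, against 3.576 between the latter). KRT8, KRT18, KRT19 and VIM were expressed in every library (457 normalised counts or more), while the ductal keratin KRT7 and the epithelial cadherin CDH1 had at most 8.83 and 16.9. The epithelial gene EPCAM had 36.4 to 86.8. The fibroblast genes DCN, LUM, FAP and PDPN had 0 reads throughout, but the fibroblast-associated THY1 had 390 to 1257 normalised counts and PDGFRB 13.6 to 76.8. PDGFRA had at most 1.45. In bulk samples, fewer cells of a type and less RNA per cell cannot be told apart.

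MYOF itself was lowered by the siRNA, and its WJ460 effect was not past the threshold. It had 12786, 20168 and 17823 normalised counts in the siGL3 libraries, 3470.2, 2372 and 2003 with siMYOF, 21148, 20492 and 19950.2 with DMSO and 20151, 26083 and 22887 with WJ460. Every siMYOF library lay below every library of the other groups, and the DMSO and WJ460 libraries overlapped. The siMYOF effect was -2.71 (SE 0.23, adjusted p = 2.41e-05) on the log2 scale, the WJ460 effect was 0.16 (SE 0.23, adjusted p = 0.603) and their difference was -2.87 (SE 0.33, adjusted p = 0.000183). MYOF lies on the minus strand of chromosome 10 (93306429 to 93482334, GRCh38). The early siRNA pair gave a smaller fall (-1.88) than the late libraries (-3.12).

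Both treatments moved about as many genes. By limma at a Benjamini-Hochberg adjusted p under 0.05, siMYOF changed 53.9% of the tested genes (4126 higher, 3806 lower) and WJ460 changed 52.9% (4017 higher, 3767 lower). The effects themselves differed in 7093 genes (48.2%), with 3559 more positive under siMYOF and 3534 more positive under WJ460. A gene was called alike where both effects passed in 1 direction, opposite where both passed in different directions and their difference passed too, and moved by 1 treatment only where that effect and the difference passed and the other effect did not. Genes past the threshold in 1 treatment without a difference past it were left undecided (2069, 14.1%), and 3722 passed in neither. An effect that did not pass was not shown to be absent.

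Both treatments raised 1709 genes (11.6%) and lowered 1306 (8.87%). They moved 1703 in opposite directions, 890 up with siMYOF and down with WJ460 (6.05%) and 813 the other way (5.52%). Only siMYOF raised 1059 (7.19%) and lowered 1102 (7.49%), and only WJ460 raised 1034 (7.02%) and lowered 1016 (6.9%). Of 4718 genes that passed under both, 63.9% went the same way. Across all genes, which are not independent replicates, the effects correlated with Pearson's r = 0.28 and Spearman's rho = 0.23, and with r = 0.27 in the late libraries alone. The 2 effects share no library, but both were estimated in 1 fit.

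**Figure D1:**
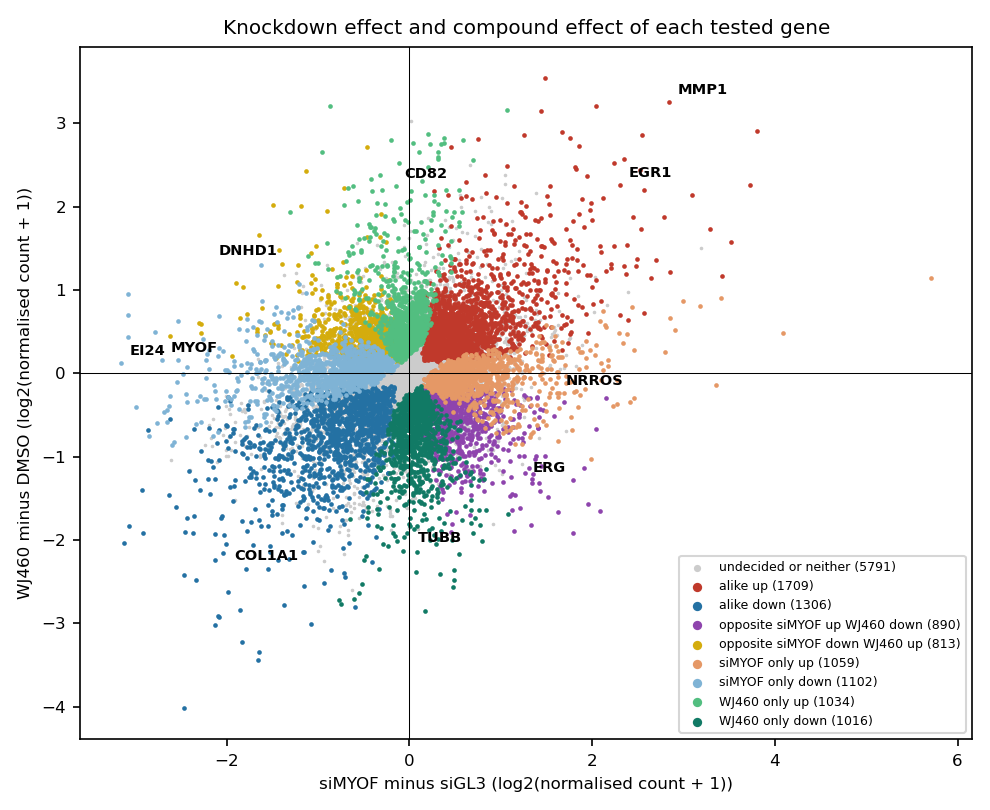
Effect of siMYOF (x axis) and of WJ460 (y axis) on each of 14720 genes, as differences of log2(normalised count + 1), coloured by class with the number of genes in brackets. Alike genes fill the upper right (1709) and lower left (1306), genes moved by 1 treatment lie along the axes, and opposite genes fill the upper left (813) and lower right (890).

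At 2-fold the classes were far smaller. Only 149 genes rose and 173 fell at least 2-fold under both treatments, and 27 and 17 were opposite with at least 2-fold in each. The difference between the effects reached at least 1 on the log2 scale in 1127 genes with the more positive siMYOF effect and 1026 with the more positive WJ460 effect. Among the 3015 alike genes, the difference was not past the threshold in 2004. In 1011 it was past it, with the siMYOF effect larger in 561 and the WJ460 effect larger in 450. The 95% interval of the difference lay within 0.5 either side of 0 for 1247 alike genes (41.4%), and for these genes equal effects within that width were measured. Over all tested genes the share was 18.6%. Alike genes were chosen in the same fit by both effects passing in 1 direction, so the gap between these shares is not evidence of equal effects.

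Genes raised alike included immediate-early and EGF receptor signalling genes and urokinase with its receptor. EGR1, an immediate-early transcription factor induced by growth factor and ERK signalling (chromosome 5, 138465479 to 138469303), had 188, 125 and 147 normalised counts in the siGL3 libraries, 1143, 617 and 608 with siMYOF, 78.8, 77.2 and 71.8 with DMSO and 299, 379 and 434 with WJ460. Both treated groups lay wholly above their controls, a separation that the rule for naming genes required within each batch. Its effects were 2.31 (SE 0.13, adjusted p = 9.94e-11) with siMYOF and 2.26 (SE 0.13, adjusted p = 2.58e-10) with WJ460, and their difference was 0.05 (95% interval -0.34 to 0.44).

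HBEGF, a membrane-anchored ligand of the EGF receptor, had 132, 227 and 265 normalised counts in the siGL3 libraries, 790.0, 732 and 972 with siMYOF, 83.7, 101.5 and 79.7 with DMSO and 869, 789.8 and 814 with WJ460. It passed the threshold under both, and its rise was larger with WJ460 (3.22, SE 0.15, adjusted p = 1.43e-10) than with siMYOF (2.04, SE 0.15, adjusted p = 9.89e-09), a difference of -1.17 (SE 0.21, adjusted p = 0.000235). Its siGL3 level, however, lay above its DMSO level by 1.34 on the log2 scale (adjusted p = 1.31e-05), and the siMYOF and WJ460 libraries overlapped. Urokinase and its receptor, which together activate plasminogen at the cell surface, rose under both. Of the 11 tested matrix protease and plasminogen genes 5 rose under both, and in all siMYOF raised 7 and lowered 0 and WJ460 raised 5 and lowered 3. Over all tested genes 11.6% rose under both, siMYOF raised 28% and lowered 25.9%, and WJ460 raised 27.3% and lowered 25.6%. PLAU had 1663, 4072 and 4177 normalised counts in the siGL3 libraries, 12638, 17892 and 20164 with siMYOF, 2248, 2183 and 2269.9 with DMSO and 10439.7, 6934 and 7635 with WJ460. PLAUR rose by 1.81 (SE 0.17, adjusted p = 4.07e-08) with siMYOF and 2.48 (SE 0.17, adjusted p = 1.26e-09) with WJ460. The difference for PLAUR, -0.67, did not stay past the threshold without siGL3 replicate 3, siMYOF replicate 2, DMSO replicate 1 or WJ460 replicate 3 (adjusted p from 0.0519 to 0.0747) or without the batch term (0.294). That for PLAU, 0.57, missed it (adjusted p = 0.0748) and passed without WJ460 replicate 1 (0.74, adjusted p = 0.00148) or siMYOF replicate 2 (0.68, adjusted p = 0.0376).

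MMP1, the interstitial collagenase, had 7.39, 163 and 142 normalised counts in the siGL3 libraries, 235, 484 and 636 with siMYOF, 27.6, 25.4 and 37.4 with DMSO and 251, 309 and 319.9 with WJ460. Its siMYOF effect of 2.84 averaged 4.81 in the early batch with 1.86 in the late one. Among late libraries its difference from the WJ460 effect was -1.39 (adjusted p = 2.05e-04), against -0.41 (SE 0.74, adjusted p = 0.689) over all. SPOCD1, which in mouse germ cells acts in piRNA-directed DNA methylation, rose by 3.80 and 2.91, and XDH, the xanthine dehydrogenase of purine breakdown, by 2.52 and 2.44. DUSP5, a nuclear phosphatase that inactivates ERK, rose by 1.98 and 1.96, but the difference between these was 0.02 over all libraries and -0.38 (adjusted p = 0.0223) in the late ones. With batch as a term, siGL3 lay above DMSO past the threshold for HBEGF and for the other genes named here as raised alike. The log2 differences were 2.62 for XDH, 1.83 for MMP1, 1.67 for SPOCD1, 0.85 for PLAUR, 0.77 for DUSP5, 0.76 for PLAU and 0.76 for EGR1.

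Genes lowered alike included a collagen, a cytokine and adhesion and kinase genes. COL1A1, a chain of type I collagen (chromosome 17, 50184101 to 50201632), had 66.5, 156 and 126 normalised counts in the siGL3 libraries, 17.4, 31.9 and 33.3 with siMYOF, 239, 263 and 267 with DMSO and 91.1, 50.1 and 50.5 with WJ460. Its effects were -2.01 (SE 0.20, adjusted p = 9.1e-08) and -2.04 (SE 0.20, adjusted p = 9.5e-08), on a control level that was lower in siGL3 than in DMSO (-0.89, adjusted p = 0.00302). CSF1, the macrophage colony-stimulating factor, had 1277, 1393 and 1375 normalised counts in the siGL3 libraries, 284, 347 and 295 with siMYOF, 1221, 1313 and 1312 with DMSO and 406, 328 and 287 with WJ460. Its fall was nearly the same size under both, -2.13 (SE 0.10, adjusted p = 1.4e-11) and -1.92 (SE 0.10, adjusted p = 1.13e-10), with a 95% interval of the difference from -0.50 to 0.10. Periplakin (PPL), which links keratins to cell junctions, fell more with siMYOF (-3.12, SE 0.16, adjusted p = 2.79e-11) than with WJ460 (-2.04, SE 0.16, adjusted p = 8.52e-09), while MAP2K6, the kinase that activates p38, fell more with WJ460 (-2.91, SE 0.19, adjusted p = 1.99e-09) than with siMYOF (-2.09, SE 0.19, adjusted p = 6.14e-08). The difference for MAP2K6 (0.81) was no longer past the threshold without siGL3 replicate 3 (adjusted p = 0.0561), siMYOF replicate 2 (0.0583) or the batch term (0.248). OLFML2A (-2.08 and -2.93), RFLNA (-2.91 and -1.91) and the matrix gene MXRA5 (-1.83 and -3.22) fell alike too.

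**Figure D2:**
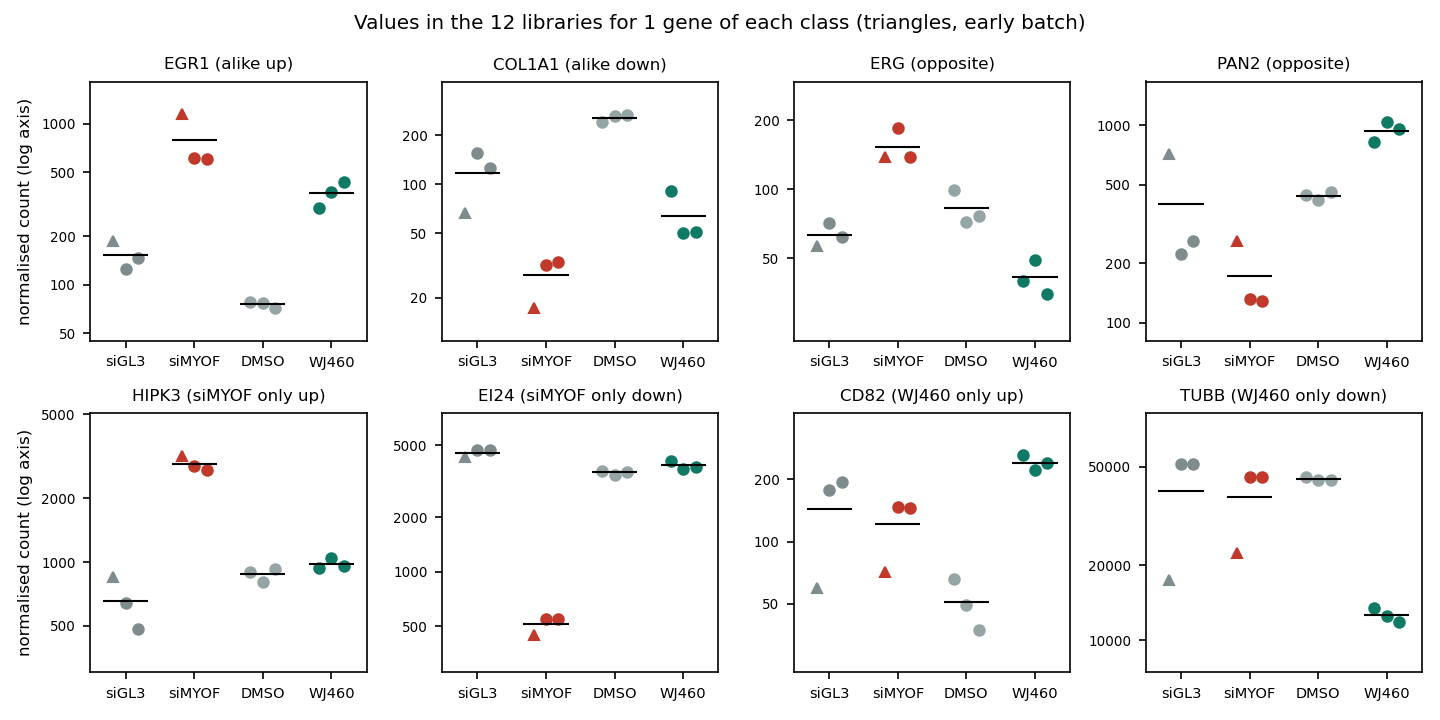
Normalised counts (log axis) in each of the 12 libraries for 1 gene of each class. Points are libraries, triangles the early batch, and lines the mean of 3 libraries. EGR1 and COL1A1 moved the same way under both treatments, ERG and PAN2 in opposite directions, HIPK3 and EI24 with siMYOF only, and CD82 and TUBB with WJ460 only. The controls differed between siGL3 and DMSO for several of them, among them EGR1 (0.76 on the log2 scale) and CD82 (1.78).

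Opposite genes with siMYOF up and WJ460 down included transcription factors and receptors. ERG, an ETS factor best known from endothelium and prostate cancer (chromosome 21, 38380027 to 38661780), had 56.5, 71.1 and 61.8 normalised counts in the siGL3 libraries, 138, 184 and 138 with siMYOF, 99.4, 71.7 and 76.7 with DMSO and 39.6, 49.0 and 34.8 with WJ460. Its effects were 1.26 (SE 0.18, adjusted p = 9.9e-06) and -0.99 (SE 0.18, adjusted p = 0.000149). All siMYOF libraries were above all siGL3 libraries and all WJ460 libraries below all DMSO libraries, which naming required within each batch. TGFBR3, the TGFb co-receptor betaglycan, had 144, 147 and 97.3 normalised counts in the siGL3 libraries, 310.2, 277 and 261 with siMYOF, 119, 129 and 115 with DMSO and 27.9, 46.9 and 24.7 with WJ460. Its effects were 1.14 (SE 0.20, adjusted p = 8.27e-05) and -1.89 (SE 0.20, adjusted p = 3.01e-07), a difference of 3.03. The repressor BACH2 (1.63 and -1.66), the forkhead gene FOXN3 (1.16 and -1.46), the tetraspanin TSPAN18 (1.34 and -1.26), PIANP (2.09 and -1.65) and the orphan receptor gene GPR162 (1.52 and -1.48) followed the same pattern. C4orf46 did too (1.10 and -1.47), and its siGL3 level was below its DMSO level by 1.58 on the same scale. It had 568, 426 and 386 normalised counts in the siMYOF libraries against 570.1, 591 and 609.8 in DMSO. The siGL3 minus DMSO difference was also past the threshold for BACH2 (-1.07), TSPAN18 (-0.84) and PIANP (-0.82). For GPR162 (-0.66), FOXN3 (-0.48), ERG (-0.30) and TGFBR3 (-0.01) it was not past it.

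Genes with siMYOF down and WJ460 up included some of RNA turnover, tRNA modification and adhesion. PAN2, a catalytic subunit of the deadenylase that shortens poly(A) tails, had 716, 224 and 258 normalised counts in the siGL3 libraries, 258, 132 and 129.8 with siMYOF, 442, 418 and 461 with DMSO and 823, 1037 and 949.7 with WJ460. Its effects were -1.07 (SE 0.12, adjusted p = 3.39e-07) and 1.08 (SE 0.12, adjusted p = 3.55e-07), and the early siGL3 library was higher than the late siGL3 libraries. ITGA10, the alpha chain of a collagen-binding integrin, had 150.5, 112 and 110.4 normalised counts in the siGL3 libraries, 82.6, 53.5 and 48.8 with siMYOF, 134, 152 and 127 with DMSO and 341, 442 and 416 with WJ460. Its effects were -1.02 (SE 0.13, adjusted p = 2.81e-06) and 1.53 (SE 0.13, adjusted p = 2.74e-08). PPP1R12C, a regulatory subunit of myosin phosphatase (-1.03 and 1.14), QTRT1, which inserts queuine into tRNA (-0.89 and 0.94), UBXN11 (-1.44 and 1.05) and RAPGEFL1 (-0.96 and 0.91) went the same way. DNHD1 did as well (-1.40 and 1.32), but without the batch term neither its effects nor their difference passed (adjusted p from 0.0791 to 0.204).

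Of the genes that the knockdown alone lowered, those named here, apart from DYSF, were taken only with a WJ460 effect under 0.25 in size. The same limit on the other effect held in the next paragraphs on genes moved by 1 treatment. EI24, an endoplasmic reticulum membrane protein with a role in autophagy (chromosome 11, 125569280 to 125584684), had 4283, 4682 and 4710.0 normalised counts in the siGL3 libraries, 444, 547 and 546 with siMYOF, 3624, 3443 and 3565 with DMSO and 4114, 3707 and 3772 with WJ460. Its siMYOF effect was -3.16 and its WJ460 effect 0.12 (SE 0.06, adjusted p = 0.102), a difference of -3.28 (SE 0.09, adjusted p = 8.27e-15). ABCC3, an exporter of organic anions and drugs, had 1284, 1101 and 992 normalised counts in the siGL3 libraries, 199, 196 and 225 with siMYOF, 849, 874 and 887 with DMSO and 949, 877 and 918 with WJ460. The WJ460 effect on ABCC3 was 0.07, with a 95% interval from -0.11 to 0.26. The elastic fibre gene EFEMP2 (-2.54), the arginine synthesis gene ASS1 (-2.23), CERCAM (-1.92), COMMD8 (-2.02) and the actin-binding gene SYNPO (-2.00) fell with siMYOF. Their WJ460 effects, kept small by that limit, lay between -0.11 and 0.17. The siGL3 level was above DMSO past the threshold for ASS1 (1.19 on the log2 scale), SYNPO (1.13) and CERCAM (0.84). Smaller such differences passed for EFEMP2 (0.47), EI24 (0.43) and ABCC3 (0.33), and that of COMMD8 did not pass (0.16). DYSF, the ferlin mutated in limb-girdle muscular dystrophy, had a siMYOF effect of -2.79 (SE 0.59, adjusted p = 0.000584) at a low level (8.74, 18.1 and 17.8 normalised counts with siGL3 and 1.45, 0 and 3.33 with siMYOF), and its WJ460 effect was 0.50 (SE 0.59, adjusted p = 0.504).

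Among genes that only siMYOF raised, the kinase gene HIPK3 had 851, 640.3 and 483 normalised counts in the siGL3 libraries, 3162, 2836 and 2717 with siMYOF, 899.9, 804 and 930.4 with DMSO and 943, 1044 and 954 with WJ460, with effects of 2.18 (SE 0.10, adjusted p = 2.77e-11) and 0.16 (SE 0.10, adjusted p = 0.201). RASGRP3, an exchange factor that activates Ras, had 313, 491 and 533 normalised counts in the siGL3 libraries, 1610.4, 1674 and 1724 with siMYOF, 349, 310.0 and 341 with DMSO and 329, 389 and 421 with WJ460. Its siMYOF effect was 1.94 (SE 0.11, adjusted p = 2.9e-10). NRROS (1.62), the nuclear NF-kB regulator NFKBIZ (2.09) and KIAA0040 (1.80) rose too. STC2, a secreted glycoprotein of the stress response, rose by 1.92 (SE 0.26, adjusted p = 0.000227), and its WJ460 effect of -0.19 became -0.51 (adjusted p = 0.00353) without WJ460 replicate 1.

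For CRLF3, HERPUD2 and NFKBIZ the control siRNA lay below DMSO by over 1 on the log2 scale. CRLF3 had 119.6, 125 and 108 normalised counts in the siGL3 libraries, 453, 458 and 374 with siMYOF, 489, 496 and 481 with DMSO and 524, 526 and 475 with WJ460. Its siMYOF level was thus near the DMSO level, and siGL3 was lower than DMSO by 2.08 on the log2 scale (adjusted p = 8.03e-10). HERPUD2 had 202, 150.2 and 104 normalised counts in the siGL3 libraries, 752, 646 and 513 with siMYOF, 478, 430.2 and 432 with DMSO and 483, 413 and 378 with WJ460. Here siGL3 was lower than DMSO by 1.78 (adjusted p = 1.67e-07). NFKBIZ had 74.6, 27.1 and 23.4 normalised counts in the siGL3 libraries, 417, 79.7 and 119 with siMYOF, 68.9, 69.5 and 87.5 with DMSO and 60.0, 89.7 and 102 with WJ460, and with batch as a term siGL3 was lower than DMSO by 1.63 (adjusted p = 2.8e-05), although the early siGL3 library lay within the DMSO range. Whether the control siRNA or siMYOF moved these genes from the untreated state cannot be told apart without untreated libraries.

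Among genes that WJ460 alone raised, CD82, a tetraspanin known as a metastasis suppressor (chromosome 11, 44564427 to 44620358), had 59.8, 177 and 195 normalised counts in the siGL3 libraries, 71.0, 147 and 145 with siMYOF, 66.0, 49.6 and 37.4 with DMSO and 261, 221 and 239 with WJ460. The WJ460 libraries were all above the DMSO libraries (2.25, SE 0.18, adjusted p = 9.12e-09), while siGL3 and siMYOF overlapped (-0.15, SE 0.18, adjusted p = 0.505). The rule for naming required the separation from DMSO and a siMYOF effect under 0.25 in size. The siGL3 level was above DMSO by 1.78 on the log2 scale. The DNA helicase gene PIF1 had 411, 145 and 192 normalised counts in the siGL3 libraries, 391, 145 and 164 with siMYOF, 231, 245 and 232 with DMSO and 873, 939 and 1002 with WJ460, with a WJ460 effect of 1.98 (SE 0.11, adjusted p = 1.29e-10). MAPK8IP3, a scaffold of JNK signalling (2.06), CCDC84 (1.82) and TROAP, a spindle-associated protein (1.85), rose as well. TROAP had a siMYOF effect of -0.17 over all libraries and -0.30 (adjusted p = 0.0128) in the late ones. GOLGA8B (2.88) and NPIPB5 (2.31) have near-identical copies in the genome, so their values are uncertain. Without the batch term the difference was no longer past the threshold for GOLGA8B, MAPK8IP3, KIAA0040, NFKBIZ, OLFML2A and RFLNA, nor the WJ460 effect for TSPAN18. In the late libraries GOLGA8B had a siMYOF effect of 0.41 (adjusted p = 0.0269), and with total-read scaling NRROS had a WJ460 effect of -0.39 (adjusted p = 0.00648).

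Among genes that WJ460 alone lowered, TCF7L1, a transcription factor of the Wnt pathway, had 215, 177 and 150.7 normalised counts in the siGL3 libraries, 194, 157 and 165 with siMYOF, 310.1, 319 and 289 with DMSO and 70.7, 76.2 and 61.7 with WJ460. Its WJ460 effect was -2.13 (SE 0.12, adjusted p = 1.8e-10) and its siMYOF effect -0.06 (95% interval -0.32 to 0.19). The neural adhesion gene LSAMP had 224, 269.9 and 168 normalised counts in the siGL3 libraries, 299, 269 and 203 with siMYOF, 226, 247 and 262 with DMSO and 40.7, 79.3 and 68.5 with WJ460, a WJ460 effect of -2.00 (SE 0.22, adjusted p = 2.85e-06). NEURL1B, a ubiquitin ligase of the Notch pathway (-2.15), the netrin receptor UNC5C (-1.85), the granzyme B inhibitor SERPINB9 (-1.60), the opioid receptor OPRD1 (-1.81) and the sodium channel subunit SCNN1B (-1.74) fell too. For SCNN1B the difference from siMYOF was no longer past the threshold without siGL3 replicate 3 (adjusted p = 0.0564) or siMYOF replicate 2 (0.0539). For UNC5C the siMYOF effect was 0.42 (adjusted p = 0.0432) without siGL3 replicate 2.

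The gene lists below were described by counts and medians and not tested as sets. List members beyond the 4 with the smallest p for the difference were chosen for the text after their values were seen. Over all tested genes, the medians of the siMYOF effect, the WJ460 effect and the difference were 0.01, 0 and -0.01, and 24.2% of genes had a difference past the threshold in the positive direction and 24% in the negative. Of all tested genes siMYOF raised 28% and lowered 25.9%, and WJ460 raised 27.3% and lowered 25.6%. List counts near these shares are not a result about the list.

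In the tubulins every difference lay in 1 direction. Alpha- and beta-tubulin form the dimers from which microtubules are built, and cells keep free tubulin in balance by degrading tubulin messages during translation, which depends on the first residues of the new protein. The beginnings of the coding sequences are shown because they encode these residues. They are 24 bases each from the canonical transcripts on GRCh38, with the first 12 in capitals.
TUBB, chr6:30720507-30720530, plus strand: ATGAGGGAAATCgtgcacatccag
TUBB4B, chr9:137241361-137241384, plus strand: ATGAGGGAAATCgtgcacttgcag
TUBB6, chr18:12308293-12308316, plus strand: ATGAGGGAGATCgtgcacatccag
TUBB3, chr16:89923402-89923425, plus strand: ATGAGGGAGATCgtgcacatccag
TUBA1B, chromosome 12, minus strand, spliced: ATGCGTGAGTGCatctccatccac

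TUBB, a widely expressed beta-tubulin (gene at chromosome 6, 30717435 to 30725538), had 17436, 51385 and 51475 normalised counts in the siGL3 libraries, 22416, 45323 and 45578 with siMYOF, 45474, 44375 and 44125 with DMSO and 13506, 12454 and 11849 with WJ460. Every WJ460 library was below every DMSO library, which the naming of genes lowered by WJ460 alone required. The WJ460 effect was -1.83 (SE 0.08, adjusted p = 3.75e-11) and the siMYOF effect 0.00, but the siRNA libraries differed by batch more than by treatment, and in the late libraries alone the siMYOF effect was -0.18 (adjusted p = 0.024). TUBA1B had 7701, 43854 and 40686 normalised counts in the siGL3 libraries, 9854, 39836 and 38736 with siMYOF, 41029.8, 39835 and 38819.6 with DMSO and 18339.6, 17053 and 17275 with WJ460, with effects of 0.05 and -1.18 (SE 0.07, adjusted p = 6.04e-10). All 11 tested tubulins had a more positive siMYOF than WJ460 effect past the threshold (10 in the late libraries, and 9 to 11 with any 1 library left out), with a median difference of 1.23. WJ460 lowered 9 and raised 1, and siMYOF raised 3 and lowered 1.

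TUBA1C (0.02 with siMYOF and -1.18 with WJ460) and TUBB4B (-0.15 and -1.07) followed TUBB. In the late libraries TUBB4B also had a siMYOF effect of -0.27 (adjusted p = 0.0283). Without the batch term the differences of TUBA1B (adjusted p = 0.372) and TUBA1C (0.141) did not pass. TUBB2A moved in opposite directions (0.68 and -0.74), TUBB4A fell under both (-0.93 and -2.52), and TUBB3, the neuronal form, rose with siMYOF only (1.07 and -0.30). TUBB6 rose under both (0.83 and 0.36). TUBB6 and TUBB3 have the same 24 bases, and their WJ460 effects differed in sign, although that of TUBB3 was not past the threshold. The summed tubulin counts were 51343, 45295 and 45268 with WJ460 against 114920, 112650 and 111800 with DMSO. In the early batch the sums were 40298 (siGL3) and 53252 (siMYOF), and in the late batch 125190 and 124120 (siGL3) and 115090 and 117240 (siMYOF), so the early and late sums lay about as far apart as those of WJ460 and DMSO. All DMSO and WJ460 libraries were of the late batch.

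**Figure D3:**
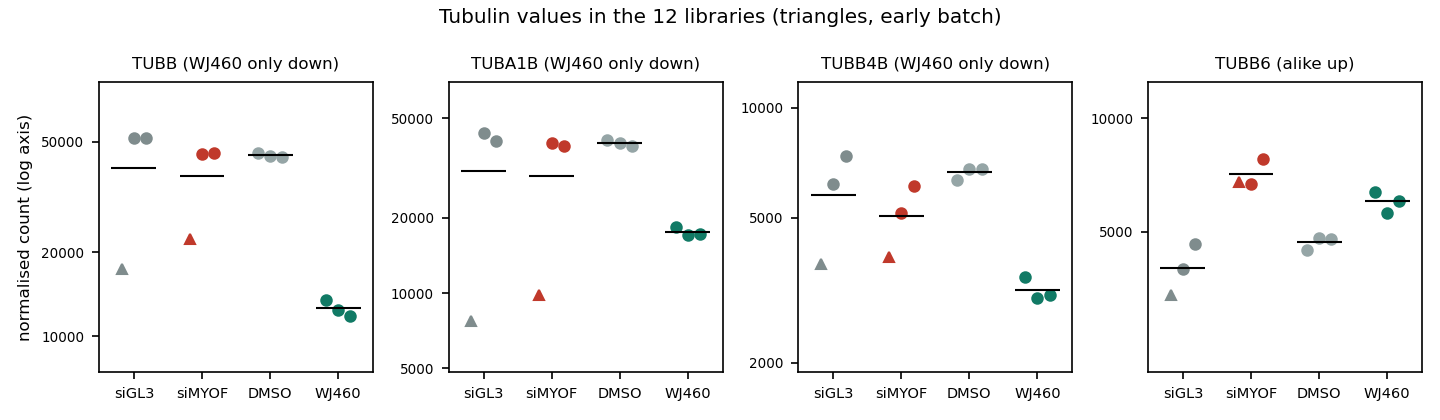
Normalised counts (log axis) of TUBB, TUBA1B, TUBB4B and TUBB6 in each of the 12 libraries. Points are libraries, triangles the early batch, and lines the mean of 3 libraries. TUBB, TUBA1B and TUBB4B were lower with WJ460 than with DMSO while TUBB6 was higher, and the early siRNA libraries were lower than the late ones for TUBB.

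Most SRF targets and actomyosin genes rose with the knockdown. SRF is the transcription factor that drives actin and contractile genes when actin polymerises, through the CArG box, a short A- and T-rich motif in their promoters. Of 25 tested members, siMYOF raised 19 and lowered 3, WJ460 raised 8 and lowered 4, and the difference was positive in 16 and negative in 2. The medians were 0.87 with siMYOF and 0.12 with WJ460, the latter -0.04 when libraries were scaled by total reads, with 6 then raised by WJ460 and 7 lowered. SRF itself had 899.9, 885 and 894 normalised counts in the siGL3 libraries, 2037, 1937 and 1996 with siMYOF, 997, 897 and 972 with DMSO and 1105, 1016 and 988 with WJ460. Its siMYOF effect was 1.16 (SE 0.07, adjusted p = 1.45e-10) and its WJ460 effect 0.12 (95% interval -0.02 to 0.26).

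Calponin 1 (CNN1), an actin-binding smooth muscle protein, had 12.8, 13.6 and 13.1 normalised counts in the siGL3 libraries, 79.7, 69.4 and 82.1 with siMYOF, 3.94, 8.83 and 6.88 with DMSO and 9.64, 6.26 and 7.86 with WJ460. Vinculin (VCL), which links integrins to actin, had effects of 1.34 and 0.06, and the actin cross-linker ACTN1 of 0.83 and -0.39. The myosin light chain MYL9 rose under both (3.52 and 1.58). Against the direction of the list, the transgelin gene TAGLN rose more with WJ460 (1.15 and 2.25) and the tropomyosin gene TPM3 fell with siMYOF (-0.65 and 0.18). The WJ460 effects of ACTN1 (adjusted p = 0.202) and TPM3 (0.145) did not pass without the batch term, nor did that of TPM3 with total-read scaling (0.77) or without DMSO replicate 2 (0.0637).

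A CArG box on either strand was found in 8 of 22 members with a promoter entry (36.4%), against 1.29% of all 27305 promoters and 1.03% of those of tested genes. The list was made of known SRF targets, so this share says nothing about these data. Windows ran from 250 bases before to 50 after each start in RefSeq (GRCh38.p14). The matches below are shown with the CArG box in capitals for EGR1, which rose alike, and for genes of this list whose difference was positive past the threshold. Another box of SRF and the matches in CNN2, FLNA, FHL2 and MYLK are not shown. Neither a match nor its absence says anything about binding in these cells.
EGR1, chr5:138465364-138465393, plus strand: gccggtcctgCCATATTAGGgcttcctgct
EGR1, chr5:138465386-138465415, plus strand: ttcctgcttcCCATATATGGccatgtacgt
SRF, chr6:43171229-43171258, plus strand: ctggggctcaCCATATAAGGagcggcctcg
ACTG1, chr17:81512874-81512903, minus strand: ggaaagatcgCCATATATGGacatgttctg
TPM4, chr19:16067355-16067384, plus strand: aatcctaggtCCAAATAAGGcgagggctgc
FILIP1L, chr3:99876214-99876243, minus strand: acgcggagcgCCTTATAAGGcagaacagtg

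ERK feedback and immediate-early genes held both shared and opposing changes. ERK signalling induces both transcription factors such as EGR1 and inhibitors such as sprouty proteins, which then damp it. Of 26 tested members, 10 rose under both treatments and 5 were opposite. Of all 26, siMYOF raised 19 and lowered 0, and WJ460 raised 12 and lowered 6, or 8 and 8 scaled by total reads. SPRY1, a sprouty inhibitor of receptor signalling, had 392.5, 317 and 302 normalised counts in the siGL3 libraries, 855, 568 and 548 with siMYOF, 379, 400.4 and 366 with DMSO and 201, 218 and 157 with WJ460. Its effects were 0.94 (SE 0.11, adjusted p = 8.71e-07) and -1.0 (SE 0.11, adjusted p = 4.72e-07). The ERK phosphatase DUSP6 (1.08 and -0.64) and PHLDA1 (1.20 and -0.49) were opposite as well, while the AP-1 subunit FOSB rose more with WJ460 (1.07 and 2.49). The difference was positive in 11 and negative in 2, and in the late libraries in 10 and 6.

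Most ATF4 targets rose with the knockdown. ATF4 is the transcription factor that restores amino acids under stress. Of 22 ATF4 targets, siMYOF raised 18 and lowered 2 (median 1.00), WJ460 raised 6 and lowered 7 (median -0.18), and the difference was positive in 14 and negative in 1. PHGDH, the first enzyme of serine synthesis, had 1737, 3039 and 3059 normalised counts in the siGL3 libraries, 5341, 6923 and 6738 with siMYOF, 3592, 3449.5 and 3674 with DMSO and 3223, 2672 and 2837 with WJ460. Its effects were 1.32 (SE 0.08, adjusted p = 4.25e-10) and -0.30 (SE 0.08, adjusted p = 0.00519), and leaving batch out of the fit ended the call of the latter (adjusted p = 0.243). ATF4 rose under both (1.73 and 0.68). Its siGL3 level lay below DMSO by 0.98 on the log2 scale (adjusted p = 2.385e-07), and that of PHGDH by 0.30 (0.0129). SLC7A11, the cystine importer, had 137, 154 and 119.8 normalised counts in the siGL3 libraries, 1128, 924 and 928 with siMYOF, 265, 236 and 255 with DMSO and 952, 444 and 474 with WJ460, and its difference was 1.64 (SE 0.35, adjusted p = 0.0028). Of 12 amino acid transporters siMYOF raised 10 and lowered 1, and WJ460 raised 6 and lowered 3, or 3 and 3 scaled by total reads. In all, 6 were raised alike, and 8 had a positive difference and 0 a negative one. Of 20 aminoacyl-tRNA synthetases siMYOF raised 10 and lowered 5, WJ460 raised 13 and lowered 2, and the differences split 7 to 6. Scaled by total reads, siMYOF raised 10 and lowered 10, and WJ460 raised 8 and lowered 6.

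Hedgehog pathway genes fell with WJ460. PTCH1, the receptor of Hedgehog ligands and itself a transcriptional target of the pathway, had 344, 296 and 239 normalised counts in the siGL3 libraries, 185, 204 and 144 with siMYOF, 357, 349 and 345 with DMSO and 56.8, 89.7 and 56.1 with WJ460. It fell under both, and more with WJ460 (-2.39, SE 0.17, adjusted p = 3.98e-09) than with siMYOF (-0.72, SE 0.17, adjusted p = 0.0015). The co-receptor BOC had 10.8, 16.9 and 13.1 normalised counts in the siGL3 libraries, 26.1, 51.2 and 32.2 with siMYOF, 18.7, 23.2 and 20.7 with DMSO and 3.21, 6.26 and 6.74 with WJ460, with effects of 1.33 (SE 0.32, adjusted p = 0.00156) and -1.82 (SE 0.32, adjusted p = 8.81e-05). The transcription factor GLI2 was opposite too (0.45 and -0.74), although its siMYOF effect did not pass without the batch term (adjusted p = 0.0839). Of 10 tested members WJ460 lowered 8 and raised 1, siMYOF raised 5 and lowered 3, and the difference was positive in 7 and negative in 0, or positive in 4 without DMSO replicate 2. A GLI motif (GACCACCCA, on either strand) was present in 0.249% of all promoters and in that of PTCH1, shown here with the motif in capitals.
PTCH1, chr9:95509419-95509448, minus strand: gttgcctaccTGGGTGGTCtctctactttg

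Primary cilium transport genes, which carry cargo along the sensory organelle on which Hedgehog signalling depends, had mostly more negative siMYOF than WJ460 effects. Of 38 tested, siMYOF lowered 27 and raised 2 (median -0.48) and WJ460 raised 13 and lowered 7 (median 0.12). Scaled by total reads, WJ460 raised 3 and lowered 13 (median -0.04), so the direction of the WJ460 effect on this list turned with the scaling. The difference was negative in 22 and positive in 2, and with that scaling in 21 and 3. IFT122, a subunit of the retrograde transport complex, had 1219, 1299.7 and 1181 normalised counts in the siGL3 libraries, 519, 642 and 618 with siMYOF, 1001, 922 and 989 with DMSO and 1482, 1321 and 1330.2 with WJ460. Its effects were -1.06 (SE 0.08, adjusted p = 1.99e-09) and 0.50 (SE 0.08, adjusted p = 1.98e-05).

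Cell cycle lists differed from each other. Of 42 DNA replication genes WJ460 lowered 28 and raised 3, siMYOF raised 14 and lowered 12 (9 and 15 scaled by total reads), and the difference was positive in 24 and negative in 3. CCNE2, the cyclin that starts S phase, was opposite (0.87 and -0.81), whereas MCM6 (-0.66 and -1.50) and E2F1 (-0.93 and -1.03) fell under both. The 37 G2/M genes had medians of 0.36 and 0.35, and their differences split 13 to 12. CDK1, the kinase of mitotic entry, had 1986, 1661 and 1502 normalised counts in the siGL3 libraries, 3636, 2380.0 and 2265 with siMYOF, 2998, 2801 and 2800.0 with DMSO and 1295, 1118 and 1107 with WJ460. Its effects were 0.66 (SE 0.08, adjusted p = 9.34e-07) and -1.29 (SE 0.08, adjusted p = 4.04e-10), while its partner cyclin CCNB1 rose under both and more with WJ460 (0.36 and 1.18). With batch as a term, siGL3 minus DMSO was -0.91 for CDK1 (adjusted p = 4.28e-07) and -0.53 for CCNE2 (0.000722). The late siMYOF libraries of CDK1 stayed below every DMSO library.

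Ribosomal and respiratory genes had mostly more positive WJ460 than siMYOF effects. Of 72 cytosolic ribosomal proteins, WJ460 raised 57 and lowered 2 (median 0.46), siMYOF raised 5 and lowered 24 (median -0.09), and the difference was negative in 59 and positive in 1. Scaled by total reads, WJ460 raised 48 and siMYOF lowered 38, with the difference negative in 57. RPS3, a protein of the small subunit, had 17104, 21659 and 23148 normalised counts in the siGL3 libraries, 7916, 9112 and 9135 with siMYOF, 19792, 19194 and 19408 with DMSO and 26709, 26368 and 29816 with WJ460. Its effects were -1.23 (SE 0.06, adjusted p = 1.5e-11) and 0.50 (SE 0.06, adjusted p = 1.34e-06). Ribosomal proteins have many processed pseudogenes, so single values are uncertain.

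Of 75 nuclear genes of oxidative phosphorylation, WJ460 raised 41 and lowered 9, siMYOF raised 5 and lowered 26, and the difference was negative in 40 and positive in 3. Scaled by total reads, WJ460 raised 21 and lowered 14, and the difference was negative in 38. The 13 genes of the mitochondrial genome all rose with WJ460 (median 0.82), siMYOF raised 6 (median 0.33), and the difference was negative in 7, in 10 in the late libraries and in 12 without WJ460 replicate 1. Their summed counts were 542010, 737300 and 743020 with WJ460 and 389710, 399960 and 379070 with DMSO, and 620100 in the early siMYOF library against 417810 and 395390 in the late ones. Of 31 glycolysis and hypoxia genes siMYOF raised 22 and lowered 3 and WJ460 raised 5 and lowered 5 (14 scaled by total reads). The difference was positive in 17 and negative in 3, but the hypoxia-responsive NDRG1 went the other way (-1.85 and 0.67). Its siGL3 level lay above DMSO by 1.26 on the log2 scale (adjusted p = 2.021e-07).

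**Figure D4:**
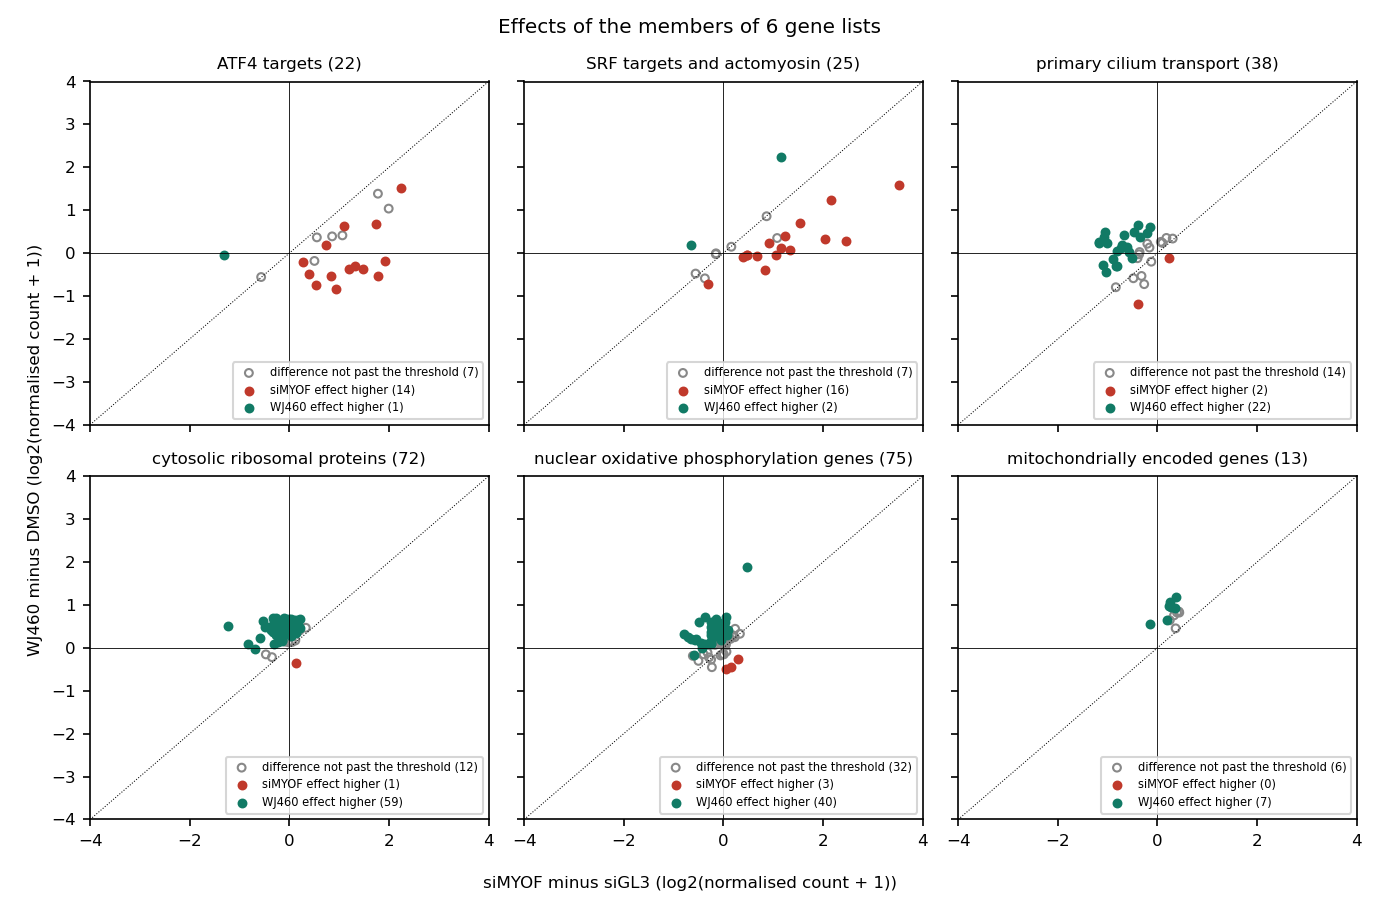
Effect of siMYOF (x axis) and of WJ460 (y axis), both as differences of log2(normalised count + 1), for each tested member of 6 lists. The dotted line marks equal effects. ATF4 targets and SRF targets lie mainly below it and cilium, ribosomal and respiratory genes mainly above.

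Of 15 tested NF-kB targets and cytokines, WJ460 raised 11 and lowered 2 (median 0.92) and siMYOF raised 6 and lowered 2 (median 0.13), and the difference was negative in 7 and positive in 1. IL11, a cytokine of the interleukin 6 family, had 140.5, 104 and 173 normalised counts in the siGL3 libraries, 110.2, 87.6 and 98.7 with siMYOF, 88.6, 87.1 and 95.4 with DMSO and 673, 536 and 605 with WJ460. Its effects were -0.46 (SE 0.15, adjusted p = 0.0159) and 2.72 (SE 0.15, adjusted p = 1.77e-10). The siMYOF effect did not pass without siGL3 replicate 3 (-0.24, adjusted p = 0.158), siMYOF replicate 2 (-0.40, 0.0656) or the batch term (0.0564). The chemokine CCL2 (-0.33 and 2.38) and the NF-kB subunit RELB (-0.29 and 1.59) rose with WJ460 only. Without siGL3 replicate 2 the siMYOF effect of RELB was -0.41 (adjusted p = 0.0474). The apoptosis inhibitor BIRC3 rose alike (1.59 and 1.56). The siGL3 level lay above DMSO past the threshold for RELB (1.01 on the log2 scale), CCL2 (0.96) and IL11 (0.54). The AP-1 motif (TGACTCA or TGAGTCA) was in 4.92% of all promoters and 2.92% of those of tested genes. Here too a match says nothing about binding in these cells. It was found, among others, in the promoter of BOC, which fell with WJ460, and in those of IL11 and PLAUR, shown with the motif in capitals.
IL11, chr19:55370541-55370570, minus strand: ggcagggagggTGAGTCAggatgtgtcagg
PLAUR, chr19:43670337-43670366, minus strand: tcacaactccaTGAGTCAgggccgagccag

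The NRF2, autophagy and collagen lists had mixed differences, with large falls of single genes under the knockdown. GCLM, the regulatory subunit of the enzyme that limits glutathione synthesis, had 1258, 1104 and 1091 normalised counts in the siGL3 libraries, 207, 269.8 and 232 with siMYOF, 1146, 1129.6 and 1170.4 with DMSO and 1772, 1515 and 1539 with WJ460. Its effects were -2.28 (SE 0.09, adjusted p = 1.91e-12) and 0.48 (SE 0.09, adjusted p = 0.000245). The haem oxygenase HMOX1 rose with WJ460 (2.71), and its siGL3 level lay above DMSO by 1.44 on the log2 scale (adjusted p = 8.515e-05). Its siMYOF effect was 0.45 over all libraries, 0.17 (adjusted p = 0.329) in the late ones, and not past the threshold by edgeR (adjusted p = 0.07) or DESeq2 (0.0571). BECN1, a core protein of autophagosome initiation, had 397, 523 and 468 normalised counts in the siGL3 libraries, 75.4, 68.3 and 78.8 with siMYOF, 391.9, 419 and 414 with DMSO and 555, 531 and 584 with WJ460. Its effects were -2.62 (SE 0.10, adjusted p = 1.26e-12) and 0.45 (SE 0.10, adjusted p = 0.00122). Among 18 NRF2 targets the difference was negative in 7 and positive in 4, among 34 autophagy genes negative in 9 and positive in 4, and among 24 collagen and matrix genes negative in 8 and positive in 4. Over all tested genes it was negative in 24% and positive in 24.2%, and the negative count of the autophagy genes was near that share.

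**Figure D5:**
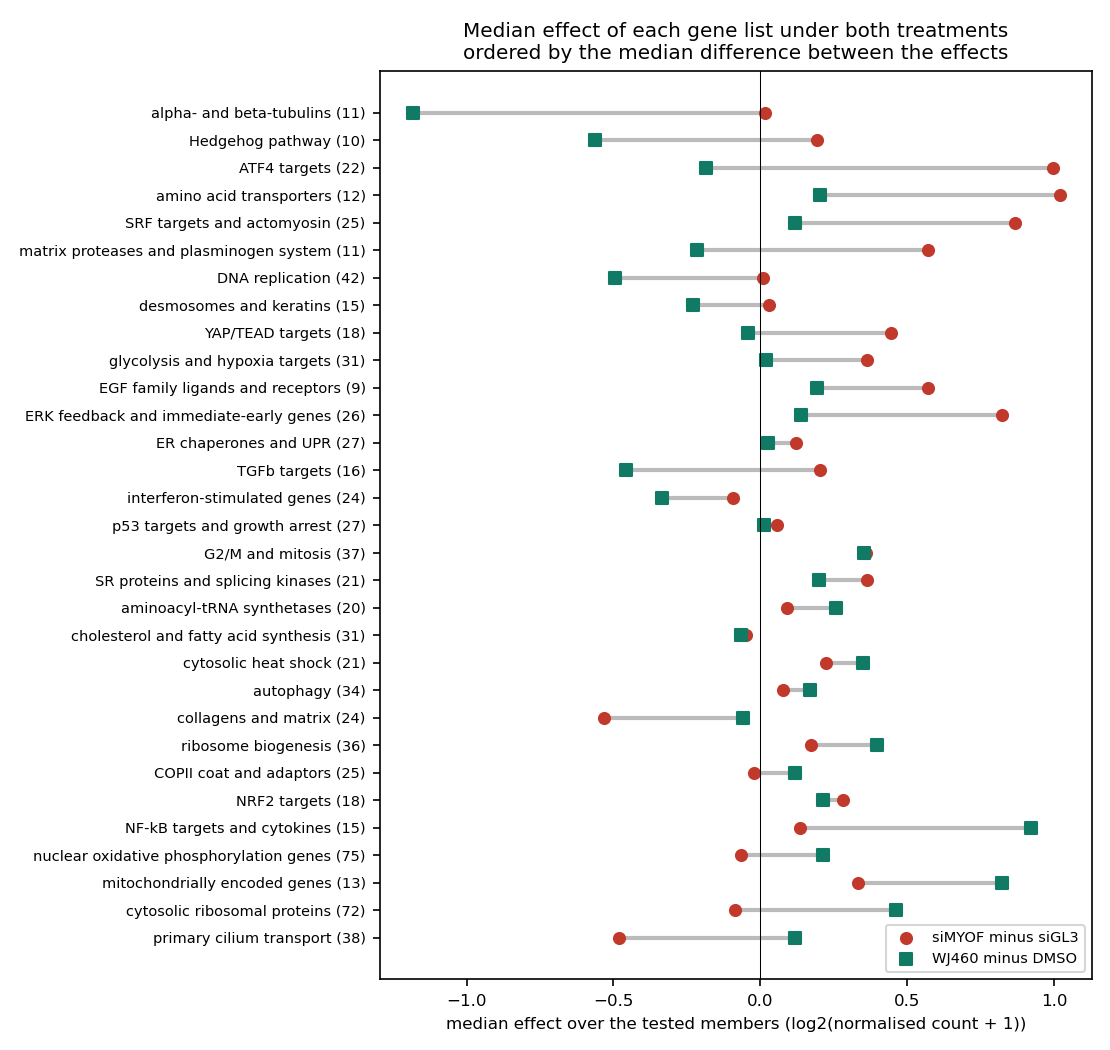
Median effect of siMYOF and of WJ460 (differences of log2(normalised count + 1)) over the tested members of each gene list with 8 or more, ordered by the median difference. Tubulins (median difference 1.23) stand at one end and primary cilium transport (-0.56) and cytosolic ribosomal proteins (-0.51) at the other.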

How the data were processed

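RNA of PANC-1 cells was sequenced in 12 libraries, 3 per group. According to the methods and the notes of the submitters, reads were aligned with STAR and counted with Salmon on GRCh38, and DESeq2 was used downstream. The deposited signal values were read counts divided by 1 size factor per library, since 100% were whole multiples of 1 read within a tolerance of 0.001. The sources do not state if DMSO or WJ460 replicates were separate cultures. P-values then measure only the spread between these samples, which may be technical.

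Values were analysed with limma 3.58.1 in R 4.3.3 (trend, robust) on log2(value + 1) over the 4 groups with library batch as a term, for genes with a mean of at least 5. Adjusted p-values are Benjamini-Hochberg over 14720 genes, two-sided, and fold changes on this scale understate those of low genes. The early batch holds siRNA libraries only, 1 per group. edgeR 4.0.16 and DESeq2 1.42.0 were run on the recovered reads as alternatives. The fit was tested on simulated data without a batch effect, so that test does not bear on the batch term. Same-numbered siGL3 and siMYOF libraries deviated together (r = 0.818, 0.53 and 0.595, and 0.45 and 0.493 across the late numbers), and DMSO and WJ460 libraries did not (0.0262, -0.002 and 0.00458).

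The comparison, the gene lists and the rule for named genes were chosen with earlier results of these data known. The rule took MYOF, the 8 leading genes of each class with a mean of at least 50, the treated libraries beyond their batch's controls and, in classes moved by 1 treatment, the other effect under 0.25, and up to 4 members per list with the smallest p for the difference. Values of some genes it names are not reported here. Promoters came from RefSeq, and tubulin starts from the GRCh38 annotation.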

Additional observations from a re-analysis of the deposited data

Results flagged for a closer look

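The siMYOF effect of 5 genes given here differed between the early pair and the late libraries by limma's test of that difference, which rests on 1 early pair. The early effect exceeded the late one by 2.95 for MMP1 (adjusted p = 8.75e-04), 1.22 for DUSP5 (0.00371), 1.24 for MYOF (0.0111), 0.59 for PHLDA1 (0.0177) and 0.54 for TUBB (0.0393). For MYOF this means a weaker fall in the early pair. Over all tested genes 39 (0.265%) differed, and 1402 had an unadjusted p under 0.05.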

How the results depend on the processing

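Without the batch term, the difference was positive in 2235 genes and negative in 2074, alike genes numbered 925 up and 735 down, opposite genes 412 (siMYOF up) and 373 (siMYOF down), and genes raised by WJ460 only 682. Scaling by total reads moved the median effects to -0.10 (siMYOF) and -0.16 (WJ460), giving 1000 alike up, 2136 alike down and 682 raised by WJ460 only, and the share of positive differences went from 50.2% to 54.5%. At an adjusted p under 0.01 there were 836 alike down and 542 and 516 opposite genes. Requiring an effect of at least 1 left 1127 positive and 1026 negative differences, 149 and 173 alike, 27 and 17 opposite, 265 and 374 moved by siMYOF only, and 211 and 305 by WJ460 only. Leaving out 1 library gave 3235 to 3603 positive and 3241 to 3547 negative differences, 1511 to 1769 alike up and 1107 to 1352 alike down, 726 to 917 and 682 to 844 opposite, 927 to 1150 and 963 to 1204 by siMYOF only, and 902 to 1106 and 909 to 1102 by WJ460 only. edgeR gave 3517 and 3635 differences and DESeq2 3329 and 3373. These 2 tools, TMM, other pseudocounts, other filters, the late libraries alone and leaving out 1 library moved no class count by over 1.5 times. In the late libraries alone, and without siGL3 or siMYOF replicate 1, the DUSP5 difference was -0.38 (-0.38 to 0.19 leaving out any 1 library) and the TUBB siMYOF effect -0.18 (-0.18 to 0.056). With total-read scaling the AXL WJ460 effect was -0.15 (adjusted p = 0.0456). The causes were not tested.

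With the replicate block in place of the batch term (pairing by replicate number), 3641 differences were positive and 3618 negative, with 1752 and 1347 alike and 960 and 865 opposite. Of the genes named here, the block brought past the threshold the difference of CDH1 (1.46, adjusted p = 0.045), and changed no other call given in the text.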

Other observations

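Cholesterol and fatty acid synthesis genes depended on 1 library. Their summed normalised counts were 126630 in WJ460 replicate 1 and 63710 and 61797 in replicates 2 and 3, against 92492 to 93854 with DMSO. Over 31 genes the difference was positive in 4 and negative in 1, and without WJ460 replicate 1 positive in 16 and negative in 4, with WJ460 lowering 7 and then 20.

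Of 24 interferon-stimulated genes WJ460 lowered 12 and raised 1, while siMYOF lowered 8 and raised 6. Over all tested genes WJ460 lowered 25.6% and raised 27.3%, and siMYOF lowered 25.9% and raised 28%, so the siMYOF counts of this list were near the shares over all genes. ISG15, a ubiquitin-like modifier, was opposite (0.96 and -0.76). Ribosome biogenesis genes rose with WJ460 in 29 of 36 and with siMYOF in 18, and fell in 0 and 4. The fibroblast-associated genes THY1 and PDGFRB summed to 430 to 597 normalised counts with WJ460, 818 to 882 with DMSO, 454 and 531 in the early siRNA libraries and 1132 to 1334 in the late ones, and 4 of the 7 fibroblast markers had 0 reads throughout.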
